A study of Macaca mulatta with 5 samples.

Results

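The comparison set neurons against radial glial progenitor cells (RPGC) of the rhesus macaque, both grown from the same line of neuroepithelial stem cells (NESC) at passage 36. Genes were kept where at least 1 of the 2 libraries held at least 20 recovered reads, which left 11747 of the 16970 genes in the table. The neurons had spent 13 days on laminin (5 µg/ml) and gelatin (0.05%) in a differentiation medium of Neurobasal with N2, B27, non-essential amino acids and glutamine supplement, with none of the inhibitors or growth factors below. The RPGC had spent 7 days in the stem cell medium from which CHIR99021 (an inhibitor of GSK3 that turns on WNT signalling) had been left out, so that they still received 5 µM SB431542 (a blocker of TGF-beta and activin receptors), human LIF at 1000 U/ml and bFGF at 10 ng/ml. The parent NESC, derived from embryonic stem cells, were grown with all 4 agents, CHIR99021 at 3 µM, and were sequenced at passages 36, 24 and 5. Each state is 1 library of 500 ng mRNA and the comparison has no replicate, so that cell state, medium, coating and days in culture cannot be told apart.

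Radial glia are the dividing progenitors that line the ventricle of the developing brain and spinal cord; they keep an apical process with junctions, answer Notch signals and give rise to neurons. A cell that becomes a neuron leaves the cell cycle, loses its apical junctions, and builds an axon, excitable membrane and synapses. Neuron-wide genes are held down in progenitors by the repressor REST, and related genes often take over from each other as the cell matures, in chromatin complexes, RNA-binding proteins and metabolic enzymes.

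Levels of genes are given in FPKM, fragment counts scaled by transcript length and library size. Differences between the 2 libraries are log2 ratios of the deposited normalized counts, neurons over RPGC, so that 2 on this scale is a 4-fold difference and a negative value means a lower level in neurons. Intervals are exact conditional 95% intervals of the ratio and cover counting error only; the spread between cultures of 1 state is not known. The recovered reads came to 5403437 in neurons and 6165818 in RPGC, with 15272 genes above 0 in neurons and 15072 in RPGC. With 1000 or more reads in the deeper library the interval of a fold was typically 0.235 wide on the log2 scale, and with 20 to 50 reads it was 1.94 wide. Of the genes named below COL4A1, DUSP6, FST, HOXB4, PAX7, RCOR2 and ZIC2, and others marked where they appear, share a locus with another gene model, which leaves their counts uncertain.

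Of the 11615 genes above 0 in both libraries, 815 were at least 4-fold higher in neurons (7.02%) and 978 at least 4-fold lower (8.42%). At the 2-fold level 1836 genes were higher (15.8%) and 2391 lower (20.6%), and 228 genes were at least 16-fold higher and 230 at least 16-fold lower. The other 7388 genes lay within 2-fold, against which the counts within 2-fold below can be read. As a yardstick from a single cell type, NESC of passage 36 against passage 24 was at least 4-fold higher at 47 of 11129 genes (0.422%) and lower at 69 (0.62%), or 1.04% in all, whereas neurons and RPGC differed that much at 15.4%. The middle 50% of genes spanned 1.41 on the log2 scale between neurons and RPGC, against 0.51 between those NESC passages. The earliest NESC passage was not compared in this way. The yardstick therefore covers those later passages only, and the spread across all NESC passages may be wider. The median gene stood at -0.11, and the values for gene groups below can be read against that.

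**Figure D1:**
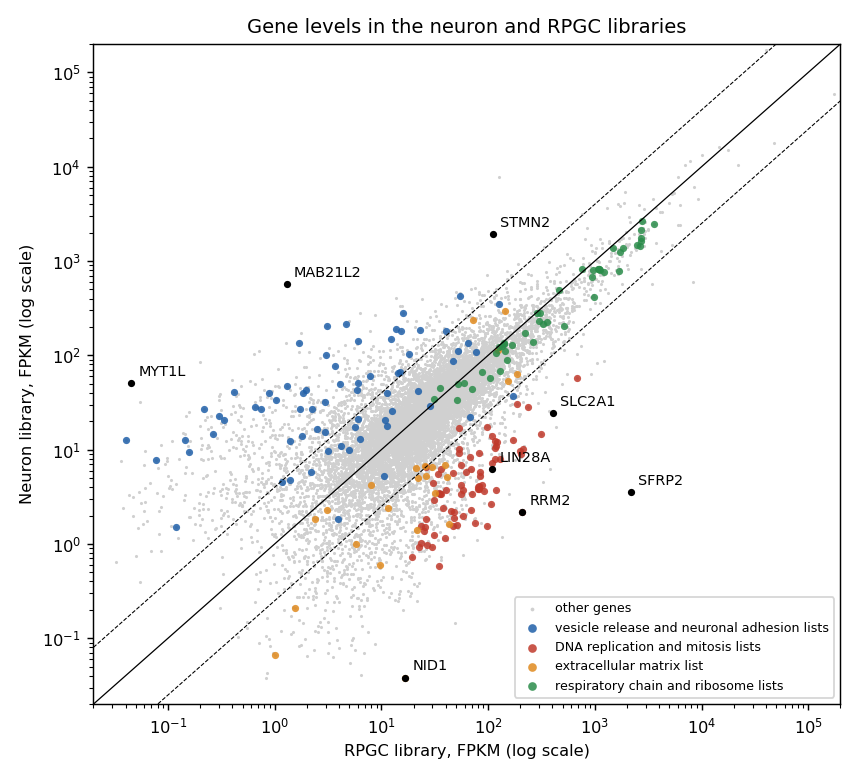
Each point is a gene above 0 in both libraries, with its level in neurons (FPKM, log scale, vertical) against RPGC (FPKM, log scale, horizontal); the solid line marks equal levels and the dashed lines 4-fold differences. Genes of vesicle release and neuronal adhesion lie mostly above the upper dashed line, genes of DNA replication and mitosis below the lower one, and ribosomal and respiratory chain genes close to the line of equal levels.

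The neuron label was checked against 12 markers. All 11 of those above 0 were higher in neurons, 10 of them at least 4-fold. STMN2, a stathmin that regulates microtubules in growing axons, had 1916 FPKM in neurons, against 110 in RPGC (log2 4.13, 4.04 to 4.21). MAPT, the microtubule-binding protein tau, had 119 FPKM in neurons, against 5.50 in RPGC, and SNAP25, a SNARE protein of vesicle fusion, had 281 in neurons, against 15.8 in RPGC. TUBB3, the tubulin used most often to stain young neurons, differed least of these markers, with 1179 FPKM in neurons, against 547 in RPGC (log2 1.08). RBFOX3, which encodes the marker NeuN of mature neurons, was listed at 0 in both libraries. STMN2 and TUBB3 were higher in RPGC than in the parent NESC of passage 36, where STMN2 stood at 6.10 FPKM and TUBB3 at 249. The other NESC passages were not set beside these values.

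The 10 radial glial markers separated the libraries far less. In neurons 9 of the 10 were lower, but only NES was so by 4-fold. NES, the intermediate filament nestin of progenitors, had 114 FPKM in neurons, against 518 in RPGC (log2 -2.18), and its partner VIM had 824 in neurons, against 2720 in RPGC (-1.75). PAX6, a transcription factor of dorsal radial glia, had 37.0 FPKM in neurons, against 136 in RPGC (-1.89). FABP7, a fatty acid-binding protein of radial glia, remained at 704 FPKM in neurons, against 1199 in RPGC (-0.77), and SOX9 at 31.2 in neurons, against 41.2 in RPGC (-0.41). SLC1A3, the glial glutamate transporter GLAST, went the other way, with 200 FPKM in neurons, against 56.6 in RPGC (1.81, 1.66 to 1.97). These are libraries of whole cultures, in which fewer cells of a type and less RNA per cell cannot be told apart.

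The most extreme genes on the neuronal side were near 0 in RPGC. MYT1L, a zinc-finger factor that represses non-neuronal genes in neurons, had 50.6 FPKM in neurons (952 reads), against 0.0449 in RPGC (1 read), a log2 difference of 10.09 with a counting interval of 7.60 to 15.39. It lies on chromosome 13 from 1727595 to 1915023 in the coordinates of the table, for which the sources used here name no genome build. CELF4, a neuronal RNA-binding protein, had 84.7 FPKM in neurons, against 0.198 in RPGC (8.70), and PLXNA4, a plexin that receives semaphorin signals, had 32.2 in neurons, against 0.0547 in RPGC (8.61). The other genes among the 12 highest with at least 50 reads and a locus of their own were NCAM2, SPON1, GRM3, ACTL6B, SLC1A1, TMEM59L, CAMK2B, AFF2 and MARCHF4, with log2 differences from 8.31 for NCAM2 to 6.98 for MARCHF4. Several of these have known places in neurons: GRM3 is a metabotropic glutamate receptor, SLC1A1 a neuronal glutamate transporter, and CAMK2B a subunit of the calcium-dependent kinase of synapses.

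On the other side SFRP2, a secreted protein that binds WNT ligands, stood far apart. It had 3.57 FPKM in neurons (9 reads), against 2191 in RPGC (6494 reads), a log2 difference of -9.30 (-10.43 to -8.38), and 59.7 FPKM in NESC of passage 36. It lies on chromosome 5 from 145989949 to 145997249. NID1, a basement membrane protein, had 0.0383 FPKM in neurons, against 16.7 in RPGC (-8.77), and PRSS35, a serine protease-like protein, had 0.143 in neurons, against 49.0 in RPGC (-8.38). ANXA2, a calcium-dependent membrane-binding annexin, had 1.17 FPKM in neurons, against 135 in RPGC (-6.86). The rest of the 12 lowest were PZP, GEM1, SLC7A2, RRM2, E2F8, ABCG2, ZNF367 and ADAMTS12, from -7.31 for PZP to -6.24 for ADAMTS12. RRM2 and E2F8 belong to the DNA synthesis programme described next, and ABCG2 is an efflux pump known from many stem cells.

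Genes of DNA synthesis and cell division were lower in neurons throughout both lists. All 34 members of the DNA replication list were at least 2-fold lower in neurons and 32 were at least 4-fold lower, with a median log2 difference of -3.52 (range -6.58 to -1.66). RRM2, the subunit of ribonucleotide reductase made in S phase, had 2.17 FPKM in neurons, against 209 in RPGC (-6.58). The replicative helicase subunit MCM3 had 2.62 FPKM in neurons, against 105 in RPGC (-5.34), and its partner MCM5 had 3.74 in neurons, against 117 in RPGC (-5.03). CDC45, which joins that helicase, had 0.579 FPKM in neurons, against 34.6 in RPGC. The smallest difference was that of FEN1, a flap nuclease that also serves in repair, with 16.8 FPKM in neurons, against 52.9 in RPGC (-1.66).

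All 38 mitosis genes above 0 in both libraries were at least 4-fold lower in neurons, with a median of -4.23 and a range of -5.49 to -2.98. The kinetochore subunit SPC24 was listed at 0 in neurons and had 31.6 FPKM in RPGC. CCNB2, a mitotic cyclin, had 1.66 FPKM in neurons, against 74.5 in RPGC (-5.49), and TOP2A, the topoisomerase that untangles chromosomes, had 9.58 in neurons (322 reads), against 200 in RPGC (7643 reads; -4.38). MKI67, the proliferation antigen Ki-67, had 2.31 FPKM in neurons, against 69.4 in RPGC (-4.94), at a locus it shares with another gene model. PLK1, a mitotic kinase, was the least apart, with 13.9 FPKM in neurons, against 108 in RPGC. None of these genes was absent from the neuron library except SPC24, which was listed at 0.

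The regulators of cell cycle exit did not move as a block. Of 18 measured, 5 were at least 4-fold lower in neurons and 2 at least 4-fold higher, with a median of -1.15. Of the E2F factors, which drive entry into S phase, E2F2 had 0.729 FPKM in neurons, against 36.5 in RPGC, and E2F1 had 7.74 in neurons, against 57.5 in RPGC. The D-type cyclin genes CCND1 (37.6 FPKM in neurons, against 153 in RPGC; -2.07) and CCND2 (2.69 in neurons, against 24.7 in RPGC; -3.25) were lower too. Among the inhibitors of cyclin-dependent kinases, CDKN2D was higher, with 86.0 FPKM in neurons, against 16.8 in RPGC (2.33, 1.96 to 2.71). CDKN2C was lower, with 0.319 FPKM in neurons, against 15.0 in RPGC (-5.60). CDKN1B, the inhibitor p27, was close to even, with 92.4 FPKM in neurons, against 75.2 in RPGC (0.30).

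Factors of dividing neural progenitors were lower in neurons in 11 of 16 cases by at least 4-fold, and none was 4-fold higher (median -2.41). LIN28A, which blocks maturation of let-7 microRNAs in early progenitors, had 6.16 FPKM in neurons, against 109 in RPGC (-4.24), and SALL4, a stem cell zinc-finger factor, had 4.72 in neurons, against 76.8 in RPGC (-3.96). The chromatin protein HMGA2 had 87.0 FPKM in neurons, against 1230 in RPGC, values that rest on only 7 reads in neurons and 133 in RPGC. HMGA1 had 127 FPKM in neurons, against 733 in RPGC (-2.60), with 654 and 4511 reads. SOX3 had 41.0 FPKM in neurons, against 339 in RPGC (-3.14), while its relative SOX2, which also maintains neural progenitors, had 105 in neurons, against 183 in RPGC (-0.85). MSI1 and MSI2, RNA-binding proteins of neural stem cells, stayed within 2-fold.

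Over the wider radial glia list the median was -0.58, and of 17 genes with a fold 2 were at least 4-fold lower and 1 at least 4-fold higher. MOXD1, a monooxygenase-like protein, had 3.78 FPKM in neurons, against 44.9 in RPGC (-3.55), and GLI3, a mediator of hedgehog signalling, had 5.09 in neurons, against 29.2 in RPGC (-2.54). The gliogenic factor NFIB had 54 reads in neurons and 2 in RPGC (4.95), a difference that shrank to 2.45 by the ratio of FPKM. NFIA, a related factor, and SLC1A2, a glutamate transporter, were above the read minimum in neurons, with 5.09 FPKM and 12.8 FPKM, and listed at 0 in RPGC.

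Of 16 genes of the apical domain 2 were at least 4-fold higher in neurons and 2 at least 4-fold lower, or 12.5% each way. Of all genes with a fold 7.02% were that much higher and 8.42% that much lower. PROM1, the apical membrane protein prominin, had 1.75 FPKM in neurons, against 39.1 in RPGC (-4.51), and OCLN, a tight junction protein, was listed at 0 in neurons and had 4.75 in RPGC. CTNNA1, the other gene at least 4-fold lower, stood at -2.14, or -1.90 by the ratio of FPKM, at a locus shared with LRRTM2. The polarity proteins CRB2 (34.0 FPKM in neurons, against 110 in RPGC) and TJP1 (9.36 in neurons, against 31.4 in RPGC) were between 2-fold and 4-fold lower. LIN7A, which also serves at synapses, had 39.3 FPKM in neurons, against 0.448 in RPGC (6.43). The polarity gene CRB1, a relative of CRB2, was higher in neurons as well (2.57). CDH2, the junctional N-cadherin used by progenitors and neurons alike, had 208 FPKM in neurons, against 252 in RPGC (-0.26).

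In the Notch pathway 11 of 20 genes lay within 2-fold, 7 were at least 2-fold lower in neurons and 2 at least 2-fold higher (median -0.55). Of all genes with a fold 20.6% were that much lower and 15.8% that much higher. The ligand gene JAG1 had 36.8 FPKM in neurons, against 191 in RPGC (-2.38), and the receptor gene NOTCH2 had 3.98 in neurons, against 25.7 in RPGC (-2.63), while NOTCH1 had 28.1 in neurons, against 38.8 in RPGC (-0.50). The target HES5 had 44.6 FPKM in neurons, against 122 in RPGC (-1.54). DLL1, the ligand that newborn neurons show to their neighbours, was near even, with 48.4 FPKM in neurons, against 62.6 in RPGC (-0.40). JAG2 was higher, with 7.02 FPKM in neurons, against 0.581 in RPGC (3.55), and the target HEY1 had 17.4 in neurons, against 4.62 in RPGC (1.85).

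Proneural factors, which start neuron production, were not uniformly lower or higher. NEUROG1 and NEUROG3 were lower, NEUROG1 with 4.06 FPKM in neurons, against 18.0 in RPGC (-2.22). EBF3, a factor of migrating young neurons, was higher, with 67.4 FPKM in neurons, against 9.29 in RPGC (2.86, 2.60 to 3.12). The neuronal SOX genes SOX4 (319 FPKM in neurons, against 71.0 in RPGC) and SOX11 (284 in neurons, against 142 in RPGC) were also higher. NEUROD1 was near even, with 8.28 FPKM in neurons, against 9.30 in RPGC.

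Neuron-wide regulators and the repressors that act against them differed in opposite directions. REST itself had 3.89 FPKM in neurons, against 14.6 in RPGC (-1.90), and the phosphatase CTDSP1 that stabilises it had 7.16 in neurons, against 32.1 in RPGC (-2.17), while its corepressors RCOR1 and RCOR2 were within 2-fold. Of the 26 genes of the list, 15 were at least 4-fold higher in neurons and 2 at least 4-fold lower, with a median of 2.19. Besides MYT1L and CELF4, the splicing factor CELF5 had 109 FPKM in neurons, against 1.68 in RPGC (5.76), MYT1 had 58.8 in neurons, against 2.10 in RPGC (4.79), and the repressor SCRT2 had 99.9 in neurons, against 3.53 in RPGC (4.72). SRRM4, which drives inclusion of neuronal microexons, had 18.5 FPKM in neurons, against 2.01 in RPGC (3.12). The neuron-specific ELAVL4 had 82.9 FPKM in neurons, against 4.73 in RPGC (4.27).

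Among transcription factors that mark subtypes of neurons, 10 of 22 were at least 4-fold higher in neurons and 3 at least 4-fold lower. MAB21L2 had 563 FPKM in neurons, against 1.30 in RPGC (8.73), yet its gene model shares a locus with another gene and the count is therefore uncertain. MEIS2, a homeodomain factor, reached 477 FPKM in neurons, against 100 in RPGC (2.28). LHX5 (48.4 FPKM in neurons, against 6.56 in RPGC), LHX1 (22.0 in neurons, against 3.69 in RPGC) and POU2F2 (57.3 in neurons, against 5.53 in RPGC) were higher as well, and PAX2 was listed at 0 in RPGC with 47.9 FPKM in neurons. LHX1, LHX5 and PAX2 are known together from dorsal inhibitory interneurons of the mouse spinal cord. EN1, a midbrain and hindbrain factor, was lower, with 0.796 FPKM in neurons, against 7.81 in RPGC (-3.39), and ISL1 of motor neurons and TBR1 of cortical neurons were at or near 0 in both libraries.

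Position genes also differed. HOX genes encode homeodomain factors that give cells their place along the head-to-tail axis, and only groups 1 to 4 reached the read minimum. Of 7 measured, HOXC4 (95.2 FPKM in neurons, against 9.75 in RPGC; 3.26), HOXD1 (68.4 in neurons, against 14.1 in RPGC; 2.24) and HOXA3 (16.3 in neurons, against 4.07 in RPGC; 2.11) were at least 4-fold higher. HOXB4 went the other way, with 19.1 FPKM in neurons, against 45.6 in RPGC (-1.29). Of the 9 dorsoventral factors measured, 3 were at least 4-fold lower in neurons: DBX2, ZIC2 and PAX7. DBX2, of progenitors midway along the dorsoventral axis, had 1.82 FPKM in neurons, against 43.2 in RPGC (-4.56). NKX6-1, a ventral progenitor and motor neuron factor, had 26.0 FPKM in neurons (68 reads), against 0.314 in RPGC (1 read).

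The cytoskeleton and its motors were higher across most members in neurons, by moderate amounts. Of 30 cytoskeletal genes, 23 were at least 2-fold higher, 12 of them at least 4-fold, and none was 2-fold lower (median 1.45). GAP43, a growth cone protein, had 453 FPKM in neurons, against 54.7 in RPGC (3.02), and DCX, a microtubule protein of migrating neurons, had 338 in neurons, against 50.7 in RPGC (2.74), at a shared locus. The internexin gene INA had 774 FPKM in neurons, against 150 in RPGC (2.38), and the neurofilament genes NEFL and NEFM were less apart, NEFL with 198 in neurons, against 81.2 in RPGC. Of 18 kinesin transport genes, 13 were at least 2-fold higher and none was lower (median 1.57). KIF21B, a motor of axons and dendrites, had 113 FPKM in neurons, against 12.1 in RPGC (3.20).

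Axon guidance genes had a median of 1.29, with 14 of 35 at least 4-fold higher in neurons and none 4-fold lower. Receptors made up most of these. DCC, the netrin receptor, had 29.7 FPKM in neurons, against 3.14 in RPGC (3.25), ROBO3, which lets commissural axons cross the midline, had 119 in neurons, against 20.9 in RPGC (2.49), and the ephrin receptor EPHA3 had 43.4 in neurons, against 4.65 in RPGC (3.24). The ligand NTN1, made by floor plate and progenitors, was lower, with 32.3 FPKM in neurons, against 82.5 in RPGC (-1.42). The receptor EPHA5 was listed at 0 in RPGC and had 996 reads in neurons, at 26.0 FPKM.

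Adhesion molecules of neurons had the highest median of the larger lists, 3.60, with 19 of 27 at least 4-fold higher in neurons. NCAM1 had 429 FPKM in neurons, against 54.5 in RPGC (2.98), NCAM2 had 12.6 in neurons, against 0.0402 in RPGC (8.31), and the contactin CNTN2 of young axons had 190 in neurons, against 13.6 in RPGC (3.79). The presynaptic neurexin NRXN2 had 140 FPKM in neurons, against 6.02 in RPGC (5.49, or 4.54 by the ratio of FPKM). The single member at least 4-fold lower was LRRTM2, with 36.8 FPKM in neurons, against 171 in RPGC, a gene nested in CTNNA1 whose model shares that locus, so that its count cannot be separated from that of CTNNA1 (88.8 in neurons, against 332 in RPGC).

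Genes of synaptic vesicle release followed, with 26 of 41 at least 4-fold higher in neurons, none 4-fold lower and a median of 2.82. SYT4, a synaptotagmin of secretory vesicles, had 204 FPKM in neurons (4835 reads), against 3.06 in RPGC (82 reads; 6.07, 5.76 to 6.41). SNAP91, which helps recycle vesicles, had 40.8 FPKM in neurons, against 0.418 in RPGC (6.96), and SYP, the vesicle membrane protein synaptophysin, had 100 in neurons, against 3.00 in RPGC (5.07). RAB3A, a small GTPase of docked vesicles, had 215 FPKM in neurons, against 4.64 in RPGC (5.50). CPLX2 and UNC13B, also proteins of release, were within 2-fold, with CPLX2 at 108 FPKM in neurons, against 76.8 in RPGC.

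Of 16 transmitter identity genes in the table, 4 had enough reads and a fold, and all 4 were at least 4-fold higher in neurons. The read minimum partly set this count, since a gene near 0 in RPGC could enter only through a high level in neurons. The list median was 5.89 with the minimum and 2.94 without it. The GABA synthesis genes GAD1 (12.2 FPKM in neurons, against 0.162 in RPGC; 6.26) and GAD2 (17.5 in neurons, against 0.331 in RPGC; 5.71) were higher, and the vesicular transporter SLC32A1, which loads GABA and glycine, was listed at 0 in RPGC with 29.3 FPKM in neurons. The vesicular glutamate transporter genes SLC17A6 and SLC17A7 stayed below 1 FPKM in both libraries and under the read minimum. SLC5A7, the choline transporter of cholinergic neurons, was listed at 0 in both, while ACHE, which breaks down acetylcholine, had 8.22 FPKM in neurons, against 0.257 in RPGC (4.97), with 55 reads in neurons and 2 in RPGC.

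Receptors and scaffolds had a median of 1.19, with 10 of 25 at least 4-fold higher in neurons and none 4-fold lower. The AMPA receptor subunit gene GRIA2 had 183 FPKM in neurons, against 7.84 in RPGC (4.62), and GRIA4 had 21.2 in neurons, against 0.808 in RPGC (4.69). The NMDA receptor subunit GRIN2D had 41.6 FPKM in neurons, against 0.953 in RPGC (5.41), and the nicotinic receptor subunit CHRNA4 had 28.0 in neurons, against 0.468 in RPGC (5.84). SHANK1, a scaffold of the postsynaptic density, had 29.7 FPKM in neurons, against 0.462 in RPGC (5.79). GPHN, the gephyrin scaffold of inhibitory synapses, differed less, with 49.6 FPKM in neurons, against 27.1 in RPGC (0.98).

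Of 27 voltage-gated channel genes 15 were at least 4-fold higher in neurons and none 4-fold lower (median 2.23). The sodium channel SCN2A had 24.0 FPKM in neurons, against 0.386 in RPGC (5.97), and SCN3A, a channel of developing brain, had 95.5 in neurons, against 7.85 in RPGC (3.76). The calcium channel subunit CACNA2D2 had 25.1 FPKM in neurons, against 0.422 in RPGC (5.70). The potassium channel KCNQ3 had 7.90 FPKM in neurons, against 0.235 in RPGC (5.00).

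**Figure D2:**
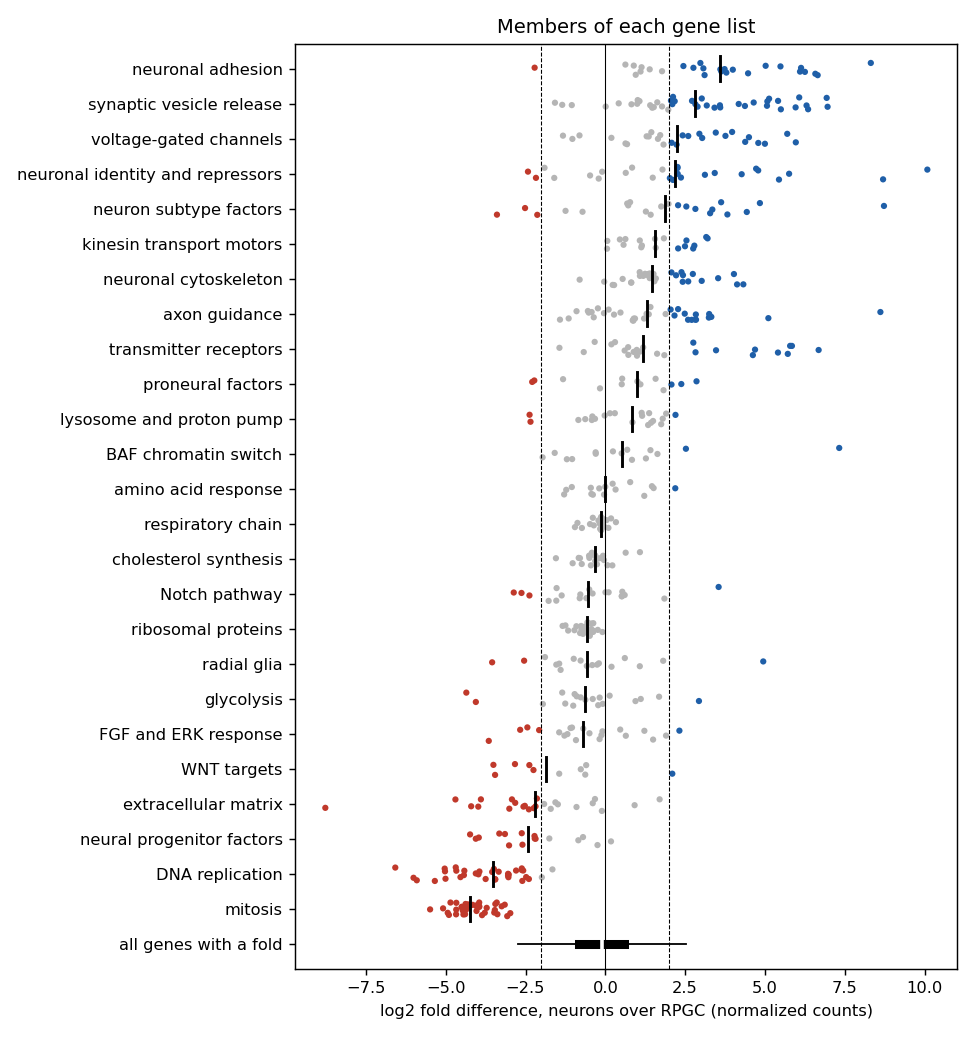
Each point is a gene of the list named at the left, placed by its log2 difference in normalized counts, neurons over RPGC; black bars are list medians, colours mark genes at least 4-fold higher (blue) or lower (red), and dashed lines mark 4-fold. The bottom row shows the middle 50% (thick) and the middle 90% (thin) of all 11615 genes; medians run from 3.60 for neuronal adhesion to -4.23 for mitosis.

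Related genes with a neuronal member were compared as shares within each library, from FPKM. The pairs were chosen with their values known, so that the direction of each share describes the libraries and supports nothing further. In the BAF chromatin remodelling complex, whose progenitor subunits give way to neuronal ones, ACTL6B made up 77.3% of ACTL6B plus ACTL6A in neurons, against 0.525% in RPGC. DPF1 made up 78.5% of DPF1 plus PHF10 in neurons, against 17.1% in RPGC, and SS18L1 made up 61.4% of SS18L1 plus SS18 in neurons, against 19.3% in RPGC. Both partners contributed, since ACTL6A had 30.2 FPKM in neurons, against 120 in RPGC.

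Other pairs changed share by different routes. PTBP2, the neuronal polypyrimidine tract-binding protein, made up 74.2% of PTBP2 plus PTBP1 in neurons, against 40.6% in RPGC, and this came from PTBP1 (56.1 FPKM in neurons, against 283 in RPGC), since PTBP2 had 162 in neurons, against 194 in RPGC. KIF5C made up 85.8% of KIF5C plus KIF5B in neurons, against 53.4% in RPGC, and here KIF5B was even (74.2 FPKM in neurons, against 71.8 in RPGC). The chloride exporter SLC12A5, which sets the response to GABA, made up 70.6% of its sum with the importer SLC12A2 in neurons, against 2.95% in RPGC. SYP made up 82.0% of SYP plus SYPL1 in neurons, against 4.22% in RPGC. For the enolases ENO2 was still the minor member, with 30.2% in neurons, against 2.13% in RPGC.

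**Figure D3:**
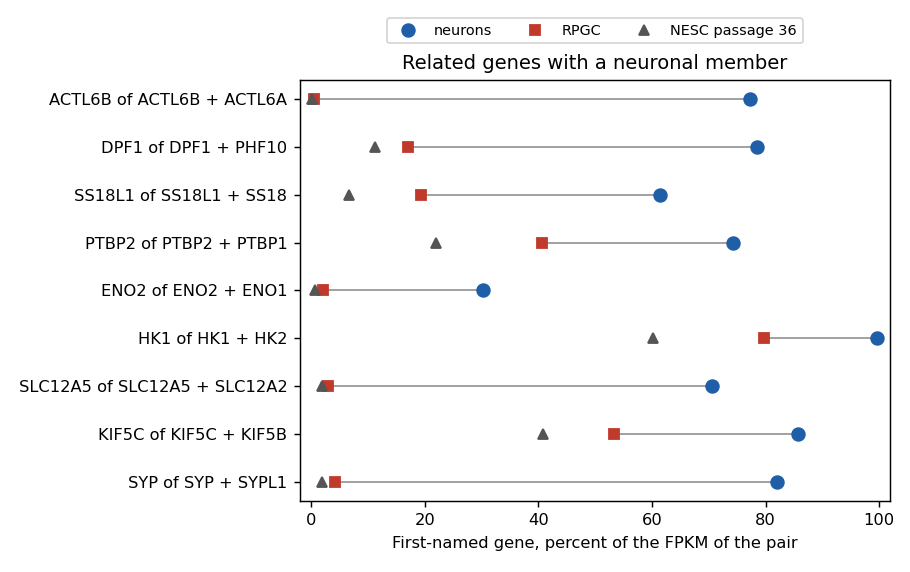
For each of 9 pairs of related genes the horizontal axis gives the first-named gene as a percent of the FPKM of both, in neurons (circles), RPGC (squares) and the parent NESC of passage 36 (triangles). In every pair plotted the share was highest in neurons, from 30.2% for ENO2 to 99.7% for HK1, and lowest in NESC of passage 36.

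The extracellular matrix was lower in neurons in 14 of 24 genes by at least 4-fold and higher by that much in none (median -2.21). Besides the basement membrane gene NID1, the collagen gene COL4A1 had 6.86 FPKM in neurons, against 39.6 in RPGC (-2.52), and LAMC1 had 6.56 in neurons, against 29.8 in RPGC (-2.19), while NID2 was listed at 0 in neurons. Fibronectin, FN1, had 5.11 FPKM in neurons, against 41.3 in RPGC (-3.01), and the fibrillin FBN2 had 1.62 in neurons, against 42.7 in RPGC (-4.70). The brain proteoglycans behaved otherwise. NCAN had 237 FPKM in neurons, against 72.6 in RPGC (1.70), VCAN had 292 in neurons, against 143 in RPGC (0.92), and BCAN was listed at 0 in RPGC with 27.1 in neurons.

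Several of the agents in the RPGC medium act through pathways with known target genes, and these were looked at as lists. Targets and feedback genes of FGF signalling, whose ligand bFGF was in the RPGC medium alone, had a median of -0.69, with 4 of 21 at least 4-fold lower in neurons and 1 at least 4-fold higher. ETV4, a transcription factor induced by FGF, had 1.02 FPKM in neurons, against 12.7 in RPGC (-3.65), and the phosphatase DUSP6 had 8.80 in neurons, against 23.9 in RPGC (-1.45). The feedback inhibitor SPRY2 was even, with 48.9 FPKM in neurons, against 51.7 in RPGC (-0.09), and DUSP4 was higher, with 110 in neurons, against 28.4 in RPGC (1.90). Among LIF and STAT3 genes SOCS3, a feedback inhibitor, had 4.14 FPKM in neurons, against 33.2 in RPGC (-3.07), with 7 reads in neurons and 67 in RPGC, and 9 of 11 genes lay within 2-fold.

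Of the TGF-beta and activin genes, whose receptors SB431542 blocks, 5 of 14 were at least 4-fold lower in neurons and 2 at least 4-fold higher. The receptor TGFBR2 had 0.255 FPKM in neurons, against 6.49 in RPGC (-4.35), and the ligand TGFB2 had 6.92 in neurons, against 82.9 in RPGC (-3.56). The negative regulators SKIL (34.9 FPKM in neurons, against 5.14 in RPGC), SMAD7 (10.4 in neurons, against 3.14 in RPGC) and FST (7.31 in neurons, against 0.877 in RPGC) were higher. Of 9 BMP and ID genes 4 were at least 4-fold lower in neurons and 2 at least 4-fold higher (median -1.49). ID3 had 2.48 FPKM in neurons, against 27.7 in RPGC (-3.53), and ID2 had 201 in neurons, against 20.8 in RPGC (3.24).

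Neither medium held CHIR99021, which the parent NESC had received. The RPGC had spent 7 days in their medium and the neurons 13 days in theirs. What part this had in the WNT genes was not tested. Of 10 genes in the WNT target list 5 were at least 4-fold lower in neurons and 1 at least 4-fold higher. The lower ones included TCF7L1 and TCF7L2, which act within the pathway as transcription factors. LGR5, a receptor that boosts WNT signals, had 1.78 FPKM in neurons, against 20.2 in RPGC (-3.51), and the inhibitor APCDD1 had 4.34 in neurons, against 30.5 in RPGC (-2.83), while AXIN2, a common reporter of the pathway, had 11.8 in neurons, against 19.3 in RPGC (-0.63). Among the antagonists of WNT signalling 4 had a fold, of which 2 were at least 4-fold lower and 2 at least 4-fold higher. SFRP2 and SFRP1 were lower, SFRP1 with 25.6 FPKM in neurons, against 373 in RPGC (-3.86), and SHISA3 was listed at 0 in neurons and had 68.1 in RPGC. DKK3 was higher, with 209 FPKM in neurons, against 28.2 in RPGC (2.86), and so was FRZB, with 14.9 in neurons, against 2.86 in RPGC (2.38).

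**Figure D4:**
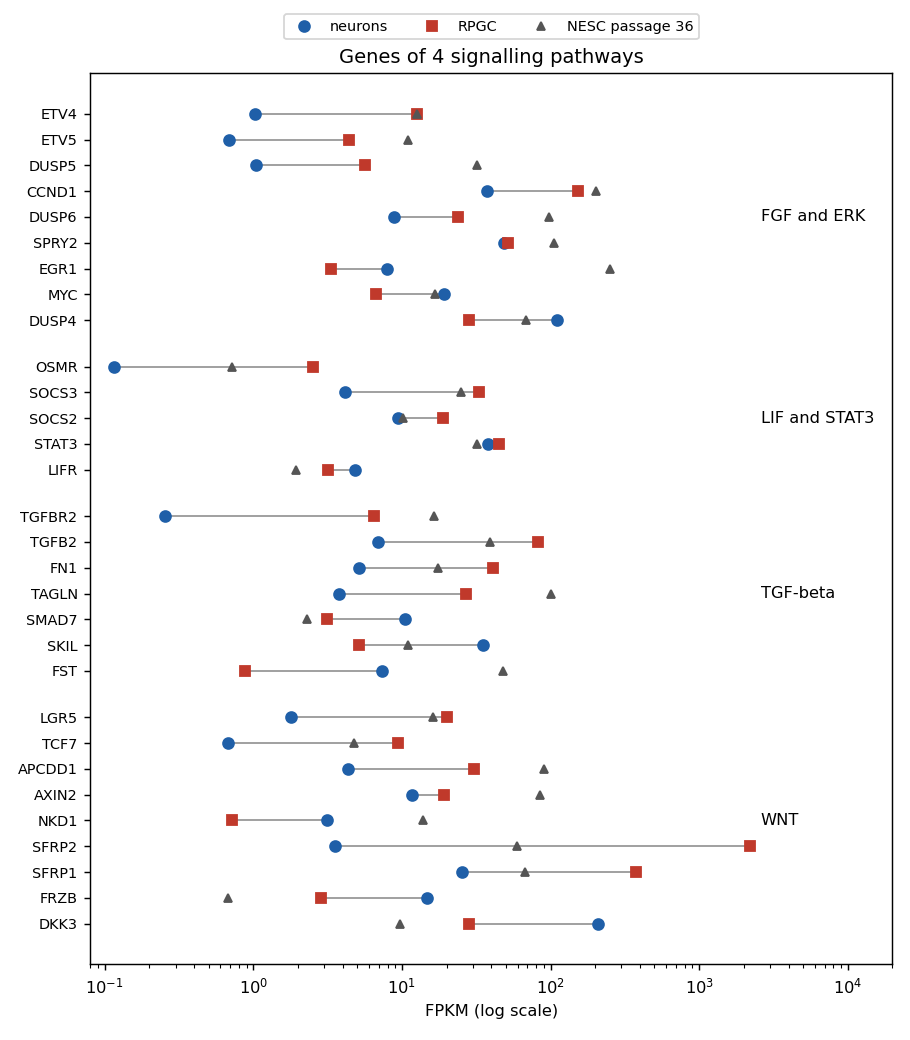
Levels (FPKM, log scale) of genes of the pathways named at the right, in neurons (circles), RPGC (squares) and NESC of passage 36 (triangles), 1 gene a row. SFRP2 is farthest apart, with 3.57 FPKM in neurons and 2191 in RPGC, while SPRY2 and STAT3 nearly coincide between neurons and RPGC.

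Among housekeeping pathways, the medians of respiratory chain and cholesterol synthesis genes lay closer to the median gene than those of ribosomal protein and glycolysis genes, which were lower. All 19 respiratory chain genes measured lay within 2-fold (median -0.13), as did 17 of 20 cholesterol synthesis genes (median -0.33). The 27 ribosomal protein genes measured were all below 0, with 24 within 2-fold and a median of -0.57. With TMM or median-of-ratios scaling, which move all genes up by 0.097 and 0.11, not all of them are below 0. RPL3 had 1450 FPKM in neurons, against 2670 in RPGC (-0.91). Glycolysis genes had a median of -0.63. The glucose transporter SLC2A1 had 24.3 FPKM in neurons, against 403 in RPGC (-4.06), and hexokinase 2, HK2, had 0.442 in neurons, against 10.3 in RPGC (-4.35), whereas hexokinase 1, HK1, had 128 in neurons, against 40.4 in RPGC (1.68). In the lysosome and proton pump list 10 of 21 genes were at least 2-fold higher in neurons, 1 of them at least 4-fold (median 0.85). In the same list 2 genes were at least 4-fold lower. ATP6V1A, a subunit of the vacuolar proton pump, which acidifies lysosomes and synaptic vesicles, had 133 FPKM in neurons, against 36.3 in RPGC (1.90).

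In the DNA methylation list 10 of 13 genes lay within 2-fold, as did 15 of 20 in the Polycomb list (median 0.56) and 10 of 15 apoptosis regulators (median -0.33). Among all genes with a fold 7388 of 11615 did so, and these counts set the lists little apart from that share. UHRF1, which brings DNA methylation to newly copied DNA, had 3.80 FPKM in neurons, against 79.6 in RPGC (-4.43), and the maintenance enzyme DNMT1 had 33.7 in neurons, against 75.7 in RPGC (-1.20). TET3, an oxidase of methylated cytosine, had 57.8 FPKM in neurons, against 26.8 in RPGC (1.02). In the Polycomb list EZH2, the methyltransferase of dividing cells, had 38.9 FPKM in neurons, against 117 in RPGC (-1.59), and its relative EZH1 had 15.9 in neurons, against 9.17 in RPGC (0.81). The proapoptotic genes PMAIP1 (0.808 FPKM in neurons, against 15.4 in RPGC) and BAX (64.7 in neurons, against 144 in RPGC) were lower.

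The genes with large differences made up a modest part of each library and were not alike in size. The 815 genes at least 4-fold higher in neurons held 10.9% of the reads in neurons, against 1.59% in RPGC, and the 978 at least 4-fold lower held 1.04% in neurons, against 8.22% in RPGC. Among genes with a locus of their own, the higher ones spanned a median of 50.2 kb of genome, against 25.8 kb for the lower ones and 23.6 kb for genes within 2-fold, and 32.5% of the higher ones spanned at least 100 kb, against 15.6% of all genes with a fold. The share of genes at least 4-fold higher was 21.9% among the 593 genes of 200 kb or more, and 4.18% among genes of 10 to 25 kb. For lower genes the same shares were 7.42% and 9.64%. With 400 or more reads in the deeper library the median spans were 72.7 kb for higher genes, 32.7 kb for lower genes and 35.2 kb for genes within 2-fold. With 100 to 400 reads they were 52.5 kb for higher, 24.1 kb for lower and 21.6 kb for genes within 2-fold. With 20 to 100 reads the higher and lower genes were closer, at 26.5 kb and 20.5 kb, and both exceeded the 11.7 kb of genes within 2-fold. These are descriptions across genes of 2 libraries, and genes are not independent replicates.

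**Figure D5:**
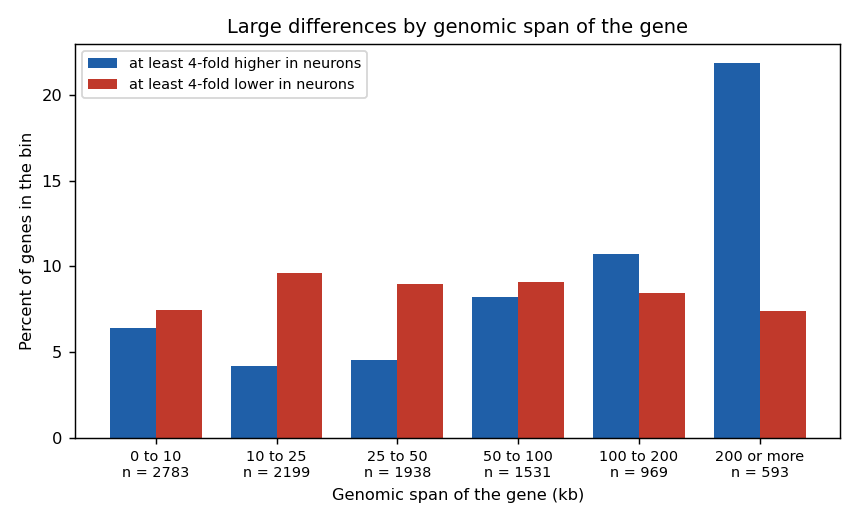
Bars give the percent of genes at least 4-fold higher (blue, left) or lower (red, right) in neurons than in RPGC, by the genomic span of the gene in kb, with the number of genes in each bin under the axis. The share of higher genes reaches 21.9% at 200 kb or more, while the share of lower genes stays between 7.42% and 9.64%.

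Markers of other cell types differed in level from list to list. The pluripotency factor POU5F1 was listed at 0 in both libraries, and 8 markers of vessels and blood summed to 1.29 FPKM in neurons and 0.714 in RPGC. Of 5 markers of epithelium and endoderm, FOXA1 alone reached the read minimum, and the 5 summed to 1.08 FPKM in neurons and 4.27 in RPGC. The 9 astrocyte markers summed to 42.9 FPKM in neurons and 103 in RPGC, with GJA1 the largest part in RPGC (18.3 in neurons, against 76.4 in RPGC) and GFAP and AQP4 below 2 in both. The 7 markers of the oligodendrocyte lineage summed to 68.8 FPKM in neurons and 145 in RPGC, with CNP at 24.4 in neurons and 71.4 in RPGC, while OLIG2 was listed at 0 in both and SOX10 in RPGC. The 11 neural crest markers summed to 93.8 FPKM in neurons and 43.0 in RPGC, with TFAP2B, a gene also used by inhibitory interneurons, at 58.8 in neurons and 5.66 in RPGC, and SNAI2 listed at 0 in both. The 10 mesenchymal markers summed to 25.8 FPKM in neurons and 13.2 in RPGC, and of 4 with a fold THY1 (8.94 in neurons, against 1.79 in RPGC; 2.33) and POSTN (1.98 in neurons, against 0.0470 in RPGC; 5.36) were at least 4-fold higher. What part such cells had in the differences above was not tested.

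A formal test exists only by borrowing the spread of the 3 NESC passages and assuming that neurons and RPGC vary as they do. On that assumption limma (two-sided, Benjamini-Hochberg adjusted over 11747 genes, threshold 0.05) placed 925 genes higher (7.87%) and 1230 lower (10.5%) in neurons. These calls took in 565 of the 815 genes at least 4-fold higher and 711 of the 978 at least 4-fold lower. They rest on NESC of passage 24, since without it limma called 0 genes, with 3567 genes at an unadjusted p under 0.05 and a lowest adjusted p of 0.0522; with all NESC libraries edgeR's quasi-likelihood test called 880 genes higher and 1003 lower, and DESeq2 called 1049 higher and 1161 lower.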

How the data were processed

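RNA-seq of 5 macaque libraries was used, 1 of neurons, 1 of RPGC and 3 of NESC. Per the labels' protocols mRNA was fragmented and copied with random primers, and per the submitters' processing notes TopHat2 2.0.9 aligned the reads. Not given in the sources used here: how reads were counted, whether strand was used, and which build and annotation served. Per the file headers the deposited table gives FPKM and a normalized count per gene and library. Each library's deposited normalized signal turned out to be its read numbers times a constant: dividing by it gave whole reads, within 0.1 read, at all values but 1 (100% after rounding). Reads ranged from 5403437 to 7899991 per library.

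The deposited table itself named 10958 genes, and RefSeq tables of another assembly, consulted for symbols alone, named 2209 by peptide and 1303 by gene ID; 2500 had none, and 813 of the 11747 genes kept are unnamed. A locus was shared by 2397 genes. Their reads, and those of antisense genes, may not be separable.

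Folds are ratios of deposited normalized counts for genes above 0 in both libraries and at least 20 reads in 1 of them; Clopper-Pearson intervals (95%) treat reads as independent molecules and cover counting error only. No test exists between 2 single libraries. A supplementary limma 3.58.1 model (R 4.3.3, trend, log2(FPKM + 1), 3 groups) takes its spread from NESC, with edgeR 4.0.16 and DESeq2 1.42.0 on recovered reads beside it; nothing says that the passages are separate cultures, so that its p-values measure the spread between these samples. The scripts were tested on simulated data.

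The genes named were the 12 highest and 12 lowest with at least 50 reads, a symbol and an unshared locus, up to 5 members of each of 46 lists by absolute difference with at least 50 reads, the 10 highest in FPKM in each library and the cell markers. Any other member of a list was picked after seeing its values. The comparison, the lists, the pairs and the rules were chosen with earlier results of these data known. Other scalings, pseudocounts, filters and thresholds, and leaving out each NESC library, were tried. A few genes are not reported here.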

Additional observations from a re-analysis of the deposited data

How the results depend on the processing

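The number of genes at least 4-fold higher in neurons ranged from 670 (at least 50 reads) to 1025 (no filter on reads), and at least 4-fold lower from 732 (log2(FPKM + 1)) to 1160 (no filter). A 2-fold threshold gave 1836 higher and 2391 lower. Scaling by TMM moved the median gene by 0.097 and by median of ratios by 0.11 on the log2 scale, giving 863 higher and 910 lower with TMM and 874 higher and 906 lower with median of ratios. Of 43 list medians under 8 settings, that of LIF and STAT3 genes (-0.25) changed sign without a filter (0.26) and with at least 50 reads (0.01), and that of amino acid response genes (-0.02) with TMM (0.08) and median of ratios (0.09). The median of mitosis came to -3.76 and that of transmitter identity to 3.51 with log2(FPKM + 1). Without a filter transmitter identity came to 2.94 and astrocyte markers to -0.80. Respiratory chain genes came to -0.024 with median of ratios. Of 240 named genes UQCR10 alone changed sign, with -0.21 by normalized counts and 0.14 by FPKM without a pseudocount and with both pseudocounts tried; the counting interval of its counts spans 0. Of the 240, 74 lay outside their counting interval with log2(FPKM + 1), 9 by the ratio of FPKM, 13 with TMM and 15 with median of ratios. The limma count of higher genes was 543 with log2(FPKM + 0.1), and leaving out 1 NESC library gave 0 to 1016 higher and 0 to 1163 lower, with 0 only without passage 24. No paired analysis was possible because neurons and RPGC have 1 library each and so share fewer than 2 replicate numbers. Depth limits the lists of low genes: with fewer than 50 reads an interval spans about 1.94 on the log2 scale.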

Other observations

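Of the 11747 genes kept, 132 had no fold because a library was listed at 0. In RPGC 90 genes were listed at 0, of which 9 had at least 300 reads in neurons, and in neurons 42 were listed at 0, none of which had as many as 300 reads in RPGC. HMP19, a neuronal vesicle protein gene, led with 3496 reads and 313 FPKM in neurons, followed by EPHA5 with 996 reads and DBC1 with 512 reads in neurons. The transcription factor BCL11A had 385 reads in neurons, C1ORF61 had 390, the matrix proteoglycan BCAN had 349 and the postsynaptic protein LRRC7 had 358, all against 0 in RPGC. Among genes listed at 0 in neurons, SHISA3 had 198 reads and the basement membrane gene NID2 had 143 in RPGC. Whether such a 0 is a failed estimate was not tested.

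A high FPKM did not always rest on many reads. C5ORF13 had 171270 FPKM from 2234 reads in neurons, against 39762 FPKM from 688 reads in RPGC, and UQCR10 had 16196 FPKM from 81 reads in neurons, against 14705 FPKM from 107 reads in RPGC. The tubulin gene TUBA1B had 10305 FPKM from 65076 reads in neurons, against 7043 FPKM from 51006 reads in RPGC. LYPD1 had 7689 FPKM from 44 reads in neurons, against 125 FPKM from 1 read in RPGC. Between the 2 scales, 109 genes differed by more than 0.5 on the log2 scale in their ratio of neurons to RPGC.

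Further genes among the largest differences were chosen after their values were seen. ANXA1, an annexin like ANXA2, had 0.388 FPKM in neurons, against 22.3 in RPGC (log2 -5.93). The sodium channel gene SCN7A, unlike the neuronal sodium channels, was lower, with 0.769 FPKM in neurons, against 58.1 in RPGC (-6.22). IFI16, a sensor of foreign DNA, had 0.360 FPKM in neurons, against 21.3 in RPGC (-5.99), and TRIM5, a factor that restricts retroviruses, had 0.255 in neurons, against 13.3 in RPGC (-5.67).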
